A study of Mus musculus with 6 samples.

Results

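The circadian clock is a loop of transcription factors that runs in nearly every mammalian cell, skeletal muscle included. *Clock* and *Arntl* (also called Bmal1) encode the activators of the loop, which bind E-box sequences and switch on the repressor genes of the *Per* and *Cry* families. A second loop controls *Arntl* itself, as the ROR receptors activate and the REV-ERB receptors (*Nr1d1* and *Nr1d2*) repress genes that carry a shared element, the RORE. *Dbp* encodes an output factor that acts on D-box sequences and is itself driven through E-boxes. Of this system 9 genes were examined, out of 46078 in the deposited count table, chosen by name: the ROR receptors *Rora* and *Rorb*, the REV-ERB receptors *Nr1d1* and *Nr1d2*, the activators *Arntl* and *Clock*, the repressors *Per1* and *Per2*, and *Dbp*.

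The RNA came from C2C12 cells, an immortalized mouse myoblast line that fuses into myotubes when serum is withdrawn. In knockout (KO) cells the RNA-binding protein gene *Hnrnpa2b1* had been targeted with CRISPR-Cas9, and wild type (WT) cells served as controls. All cells were grown for 24 hr and then differentiated for 2 days, and 3 libraries of each genotype (named KO1, KO2, KO3, WT1, WT2 and WT3, the order in which values are listed below) were made from total RNA depleted of ribosomal RNA. The methods describe 3 clonal populations of each genotype picked with cloning rings after transfection and puromycin selection, but not which clone gave each library. Neither the labels nor the methods give the clock time of harvest or name a step meant to set the circadian phase. Each library is thus 1 snapshot of unknown phase. All cultures changed medium and serum at the start of differentiation, and any effect of this on phase was not tested. The p-values measure the spread between these libraries.

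Between 33605258 and 40558740 reads were counted on genes per library. The transcript of the targeted gene does not separate the genotypes, since *Hnrnpa2b1* stood at 159, 195 and 248 CPM (read counts relative to library size, scaled by edgeR's TMM factors) in the KO libraries and at 225, 229 and 252 in the WT libraries. An edited gene can still be transcribed, so these levels do not check the labels, and the genotypes are named as labelled. The paper checked its KO clones for the protein by immunofluorescence and Western blot, the latter beside cells given a scrambled guide RNA. The myotube markers were present in every library, with summed levels of 13690 to 31054 CPM in KO and 23115 to 29799 CPM in WT, KO2 being lowest and KO1 highest.

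Promoter sequences were available for 8 of the 9 genes, with 13 transcription starts between them (RefSeq, GRCm38.p6, 250 bases before to 50 after each start). They were searched on both strands for 3 elements of the clock. CACGTG, the canonical E-box, occurs in 7.15% of all 32851 promoters, TTANGTAA, a D-box, in 2.32%, and TAGGTCA or TGGGTCA, the core of the RORE, in 6.45%. Each element was found in 1 of the 8 genes searched, which leave out *Per2*. These stretches are printed because they are the letters through which the loops are known to act. The strand is that of the gene, capitals mark the element, and the windows are an E-box in a *Per1* intron at chr11:69098756-69098815, 166 bases before a start, a D-box in a *Rorb* intron at chr19:19001178-19001239, 95 bases before a start, and a RORE core in the untranslated first part of *Arntl* at chr7:113207531-113207557, 30 bases after a start.
Per1 E-box: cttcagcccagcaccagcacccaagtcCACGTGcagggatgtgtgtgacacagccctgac
Rorb D-box: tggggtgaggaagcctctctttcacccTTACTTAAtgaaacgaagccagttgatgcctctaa
Arntl RORE core: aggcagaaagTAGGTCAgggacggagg

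Among 30 other clock pathway genes, 24 had a promoter, and 5 of these held the E-box. The E-box windows of *Cry1* (chr10:85185082-85185141, upstream of the gene) and *Bhlhe41* (chr6:145865556-145865585, the E-box itself upstream of the gene) are shown beside that of *Per1*, as transcripts of these 3 genes differ in direction below.
Cry1 E-box: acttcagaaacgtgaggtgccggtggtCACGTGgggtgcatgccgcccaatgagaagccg
Bhlhe41 E-box: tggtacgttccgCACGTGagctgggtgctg

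*Rorb*, an ROR receptor best known from retina and brain, was the gene around which the group was chosen, so its values are a description and were not tested. It lies on chromosome 19 from 18930605 to 19111196 (ENSMUSG00000036192, GRCm38, minus strand). The WT libraries held 553, 557 and 568 reads of *Rorb*, and the KO libraries held 0, 1 and 0 reads. In CPM this is 16.0, 17.0 and 15.3 in WT and 0, 0.0229 and 0 in KO. Every KO library was at or under the floor of 3 reads per library, and against that floor *Rorb* was at least 214-fold lower in KO. The WT libraries were close to each other, at 16.1 ± 0.837 CPM (SD, n = 3). The TPM values, which correct for transcript length, were 1.21, 1.34 and 1.07 in WT and are listed at 0 in all 3 KO libraries.

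Other genes near *Rorb* were detected in KO. The other 48 tested genes within its 10 Mb stretch of chromosome 19 had a median log2 fold change of −0.29, against 0.03 over all tested genes. The nearest tested gene on the side of lower coordinates, *Trpm6*, a magnesium channel gene 38.1 kb away, was higher in KO. It stood at 2.68, 2.22 and 1.22 CPM in the KO libraries and at 0.202, 0.244 and 0.539 in the WT libraries, with a log2 fold change of 2.61 (edgeR's quasi-likelihood test, adjusted p = 0.0113, and 0.0612 without WT1). The nearest tested gene on the other side, *Anxa1*, lies 1262 kb away and had a log2 fold change of 0.56 (adjusted p = 0.110). Beyond it, *Zfand5*, 2161 kb from *Rorb*, was lower in KO (−0.91, edgeR adjusted p = 0.00946). Beyond *Trpm6*, *D030056L22Rik*, 212 kb from *Rorb*, did not pass (−0.23, adjusted p = 0.448).

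*Rora* encodes the ROR receptor more usual in muscle, and lies on chromosome 9 from 68653786 to 69388246 (ENSMUSG00000032238). It stood at 3.55, 1.26 and 3.85 CPM in the KO libraries and at 9.19, 5.63 and 5.87 in the WT libraries. All KO libraries lay below all WT libraries, and KO2 was lowest with 55 reads. The log2 fold change of −1.26 (standard error 0.43) did not pass the threshold of 0.05 in edgeR's quasi-likelihood test (adjusted p = 0.0687). The call differed between fits, as the adjusted p was 0.00911 in DESeq2, 0.000817 without the filter on low counts and 0.0464 without KO1. No *Rora* value was tested in TPM, where it stayed under the minimum of 1, at 0.0743 to 0.307 in KO and 0.375 to 0.701 in WT.

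Per length, *Rorb* was the more abundant of the pair of ROR transcripts in the WT libraries, with 63.4%, 77.0% and 74.1% of their summed TPM. The sum of *Rora* and *Rorb* was 1.70 ± 0.236 TPM (SD, n = 3) in WT and 0.197 ± 0.117 TPM (SD, n = 3) in KO. The REV-ERB receptors together stood at 27.1, 23.3 and 20.4 TPM in WT and at 15.1, 15.0 and 18.2 TPM in the KO libraries, and the genotypes did not overlap. The ratio of the REV-ERB sum to the sum of *Rora* and *Rorb* was 14.2, 13.4 and 14.1 in WT and 72.5, 202 and 59.5 in KO. These sums contain *Rorb* or follow from the choice of genes and carry no test.

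**Figure D1:**
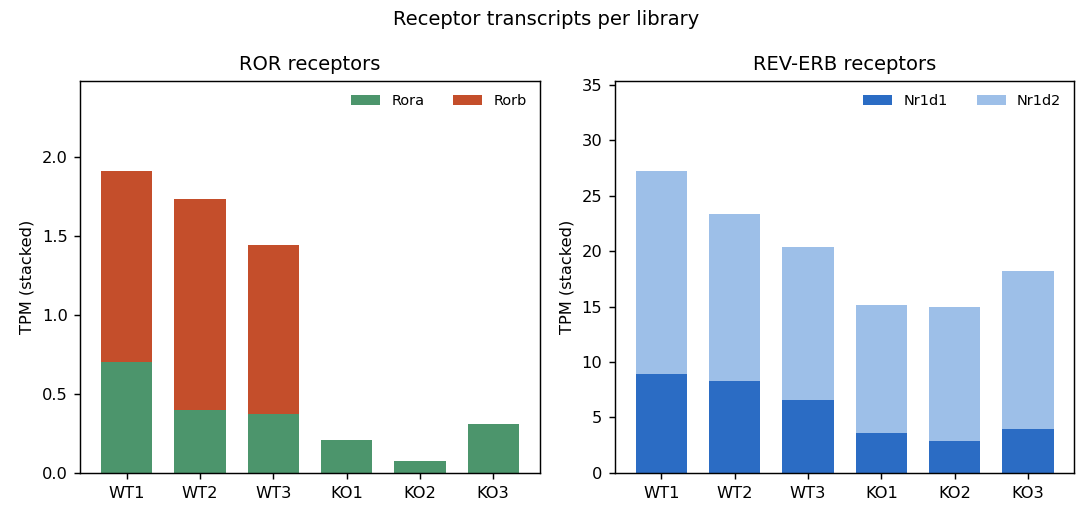
Stacked bars give the TPM of the ROR receptors *Rora* and *Rorb* (left) and REV-ERB receptors (right) in each library, WT1 to WT3 and then KO1 to KO3. The *Rorb* part of the left bars is present in the 3 WT libraries and listed at 0 in the 3 KO libraries, and the right bars reach 20.4 to 27.1 TPM in WT and 15.0 to 18.2 TPM in KO.

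Among the 8 genes other than *Rorb*, *Nr1d1* and *Per1* were lower in KO, *Per2* was higher, and *Rora*, *Nr1d2*, *Arntl*, *Clock* and *Dbp* did not pass the test in edgeR. That is 3 of 8, where 22.7% of all 14828 tested genes passed, with 12.1% higher in KO and 10.6% lower. DESeq2 and edgeR without the filter on low counts each called 1 higher and 4 lower, where 4149 and 4538 of 30252 genes passed. The 30252 are all genes with any read, including those too low for the filter, so these shares do not compare with 22.7%. Library totals alone gave 1 higher and 1 lower. Without KO1 1 was higher and 3 lower, and without KO2 1 and 2. Without KO3 or WT2 it was 1 and 1, and without WT1 or WT3 0 and 1. The whole table moved as well, with 3469 of 14828 genes passing with library totals alone and 4713 of 15409 without KO1. Without KO2 it was 2695 of 15202 and without KO3 2088 of 14989. Leaving out WT1, WT2 or WT3 gave 933 of 15521, 2100 of 15408 and 1288 of 15272. In 6 of the 8 genes, all KO libraries lay on one side of all WT libraries (5 below and 1 above), which held for 44.3% of all tested genes. The median log2 fold change of the 8 genes was −0.51, against 0.03 over all tested genes. These 8 genes were named for their role with earlier results of these data known, so the counts are no independent evidence.

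**Figure D2:**
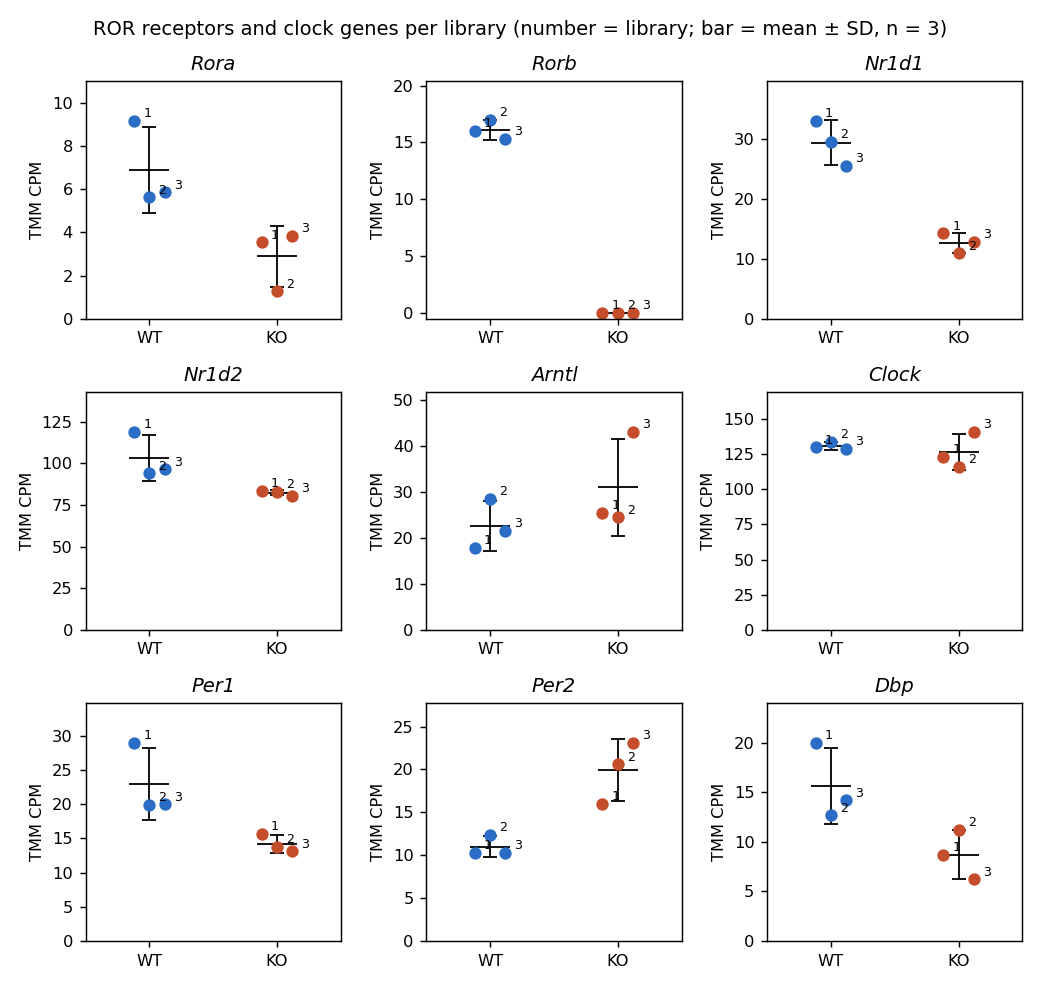
Points give the TMM-scaled CPM of each gene in the 3 WT and 3 KO libraries, with the library number beside each point and the mean and SD (n = 3) as bars. *Rorb* is at 0 or 0.0229 CPM in KO, the *Nr1d1*, *Per1* and *Dbp* points of KO lie under those of WT, the *Per2* points lie above, and *Arntl* and *Clock* overlap.

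*Nr1d1*, which encodes REV-ERBα, a repressor of *Arntl* and a sensitive read-out of the E-box arm, lies on chromosome 11 from 98767932 to 98775333 (ENSMUSG00000020889). It stood at 14.2, 10.9 and 12.8 CPM in the KO libraries and at 33.0, 29.5 and 25.5 in the WT libraries. The highest KO library was well below the lowest WT library, and *Nr1d1* was 2.32-fold lower in KO. KO differed from WT by −1.22 on the log2 scale (standard error 0.17, adjusted p = 0.00391 in edgeR's quasi-likelihood test), and the call held in all 11 alternatives, with adjusted p from 1.17e-07 to 0.0260. In TPM the values were 3.60, 2.86 and 3.99 in KO and 8.88, 8.33 and 6.58 in WT (adjusted p = 0.00632 in limma, and 0.0501 without WT1), where limma called 20.5% of the 11691 genes tested in TPM.

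The exons of *Nr1d1* share 263 bases, 8.55% of its exon length, with those of *Thra*, the thyroid hormone receptor alpha gene on the opposite strand. Whether the reads were counted by strand is not stated, so reads in the shared stretch cannot be told apart. *Thra* was also lower in KO, at 49.1, 69.4 and 44.8 CPM against 118, 115 and 101 CPM in WT, a log2 fold change of −1.03 (edgeR, adjusted p = 0.00846).

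*Nr1d2*, the gene of REV-ERBβ, lies on chromosome 14 from 18204054 to 18239127 (ENSMUSG00000021775) and was the more abundant REV-ERB transcript per length. It stood at 83.4, 82.8 and 80.5 CPM in the KO libraries and at 119, 94.1 and 96.5 in the WT libraries. The KO libraries were close together and below the WT libraries in CPM, but the genotypes overlapped in TPM. The log2 fold change of −0.33 (standard error 0.13) did not pass the test (edgeR, adjusted p = 0.104), nor in any of its 11 alternatives (0.0944 to 0.346). *Nr1d1* made up 32.7%, 35.8% and 32.2% of REV-ERB TPM in WT and 23.8%, 19.1% and 21.9% in the KO libraries.

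*Arntl*, the RORE-controlled activator, lies on chromosome 7 from 113207465 to 113314122 (ENSMUSG00000055116). It stood at 25.4, 24.5 and 43.1 CPM in the KO libraries and at 17.9, 28.5 and 21.5 in the WT libraries. The genotypes overlapped, and KO3 stood apart from the other KO libraries. A log2 fold change of 0.45 was measured (standard error 0.27, edgeR adjusted p = 0.240), and without KO3 it was 0.15. No alternative brought *Arntl* past the threshold (0.138 to 0.678).

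*Clock*, the partner of *Arntl*, lies on chromosome 5 from 76209868 to 76304792 (ENSMUSG00000029238) and had the log2 fold change nearest to 0 of the 8 genes. It stood at 123, 116 and 141 CPM in the KO libraries and at 130, 134 and 129 in the WT libraries. Its log2 fold change was −0.05 (standard error 0.12, edgeR adjusted p = 0.803), and the sign turned with the scaling by library totals alone (0.07) and without KO2 (0.02). The difference was smaller than the spread between libraries, which does not show that the levels were equal.

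*Per1* and *Per2*, both repressors of CLOCK and BMAL1 and both E-box genes, differed in opposite directions. *Per1* lies on chromosome 11 from 69095217 to 69109960 (ENSMUSG00000020893) and stood at 15.74, 13.75 and 13.12 CPM in the KO libraries and at 28.96, 19.85 and 20.01 in the WT libraries. WT1 was the highest library by a wide margin, and the genotypes did not overlap. *Per1* was lower in KO by a log2 fold change of −0.69 (standard error 0.19, edgeR adjusted p = 0.0362), and its size without WT1 was −0.50. The call was lost without WT1 (edgeR adjusted p = 0.139), WT2 (0.0503), WT3 (0.0663), KO2 (0.0801) or KO3 (0.0982), and with library totals alone (0.0573). The log2 fold change was −0.80 without WT2 and −0.81 without WT3, where 2100 and 1288 genes passed, against 3361 with all libraries. It was −0.67 without KO2 and −0.63 without KO3. In TPM *Per1* stood at 1.91 to 2.16 in KO and 2.98 to 4.66 in WT (limma, adjusted p = 0.0499, and 0.0804 to 0.206 when any library other than KO1 was left out).

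*Per2* lies on chromosome 1 from 91415982 to 91459324 (ENSMUSG00000055866). It stood at 16.0, 20.6 and 23.1 CPM in the KO libraries and at 10.3, 12.4 and 10.3 in the WT libraries. All KO libraries were above all WT libraries, and *Per2* was 1.81-fold higher in KO. Its log2 fold change was 0.85 (standard error 0.18, edgeR adjusted p = 0.0170), with 0.0849 without WT1 and 0.0811 without WT3. In TPM the genotypes did not overlap either, at 1.64 to 3.05 in KO and 1.10 to 1.49 in WT. There limma did not call the difference (adjusted p = 0.0734) other than without KO1 (0.68, adjusted p = 0.0164). The log2 difference of *Per2* from *Per1* in CPM was −1.49, −0.68 and −0.96 in WT and 0.02, 0.58 and 0.81 in the KO libraries.

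*Dbp*, the D-box activator and a strongly rhythmic clock output, lies on chromosome 7 from 45705088 to 45710155 (ENSMUSG00000059824). It stood at 8.70, 11.21 and 6.22 CPM in the KO libraries and at 19.97, 12.73 and 14.16 in the WT libraries. The genotypes did not overlap, but KO2 and WT2 lay close to each other. The log2 fold change of −0.84 (standard error 0.26) missed the threshold in edgeR (adjusted p = 0.0551), and passed it in DESeq2 (0.0166), without the filter on low counts (0.00334), without KO2 (0.0374) and with TPM in limma (0.0401). In TPM *Dbp* stood at 7.72 to 10.1 in KO and 11.8 to 19.4 in WT, but limma's adjusted p was 0.0547 to 0.164 when any library other than KO2 was left out. Exons of *Dbp* share 539 bases, 18.0% of their length, with *Sphk2* on the opposite strand, whose log2 fold change was 0.02 (edgeR, adjusted p = 0.946).

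The difference of *Dbp* from *Arntl*, genes that peak at opposite phases of the cycle, was computed per library on the log2 TPM scale. It was 2.21, 0.93 and 1.34 in WT and 0.53, 0.86 and −0.56 in the KO libraries. All KO values were below the WT values in TPM, although KO2 and WT2 differed little. In CPM, a scale without length correction, the differences were 0.16, −1.16 and −0.60 in WT and −1.55, −1.13 and −2.79 in KO, so that KO2 lay above WT2 and the genotypes overlapped. The mean difference between KO and WT in CPM was −1.29, and −0.80 without KO3. No test was made on this combination.

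**Figure D3:**
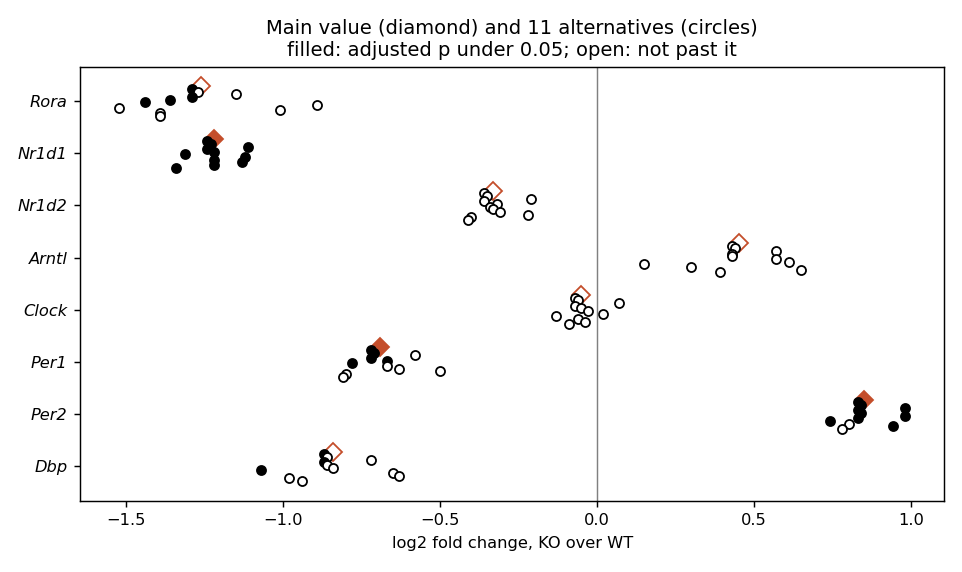
Each row gives the log2 fold change between KO and WT of 1 of the 8 genes other than *Rorb*, as the main value (diamond) and 11 alternatives (circles), filled where the adjusted p was under 0.05. All marks of *Nr1d1* are filled, the marks of *Nr1d2*, *Arntl* and *Clock* are all open, and *Rora*, *Per1*, *Per2* and *Dbp* have both kinds.

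Of 30 other clock pathway genes, 26 were tested, of which 2 were higher in KO, 5 were lower and 19 did not pass the test, where 22.7% of all tested genes passed, with 12.1% higher and 10.6% lower. Their median log2 fold change was −0.23, against 0.03 over all tested genes. DESeq2 was run on all 30, the genes too low for edgeR's filter included. It called 2 as higher and 7 as lower, where 4149 of the 30252 genes with any read passed. Without the filter on low counts edgeR called 1 and 6 of 30, where 4538 of 30252 genes passed. With library totals alone edgeR called 2 and 1 of 26, where 3469 of 14828 genes passed. Without KO1 3 were higher and 7 lower, and 0 were higher and 1 to 2 lower without any other library. Over all genes 4713 of 15409 passed without KO1. Without any other library it was from 933 of 15521 (WT1 left out) to 2695 of 15202 (KO2 left out). The E-box-driven clock genes, of which 15 of 16 were tested, had 2 higher (*Per2* and *Bhlhe41*), 3 lower (*Nr1d1*, *Per1* and *Cry1*) and 10 that did not pass, with a median of −0.33. The RORE-driven clock genes, of which 5 of 6 were tested, had 0 higher (also 0 at an unadjusted p under 0.05 and in DESeq2), 2 lower (*Cry1* and *Nr1d1*, which both lists hold) and 3 that did not pass, with a median of −0.08. With library totals alone, which moved the median of all genes by 0.12, the E-box-driven genes had 2 higher and 1 lower, the RORE-driven genes had 1 lower, and the medians were −0.21 and 0.04. The median of the RORE-driven genes ranged from −0.34 (without KO3) to 0.02 (without KO2) when 1 library was left out, so its sign rests on single libraries. The E-box-driven genes had 2 higher and 6 lower in DESeq2 and also without the filter on low counts, 3 higher and 4 lower without KO1, 1 higher and 3 lower without KO2, 1 higher and 1 lower without KO3, 1 higher and 2 lower without WT2, and 0 higher and 1 lower without WT1 or WT3, and without WT1 only *Nr1d1* was called in either list.

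Among the activators, *Arntl2*, a paralog of *Arntl*, was higher in KO, at 1.29, 1.40 and 1.83 CPM against 0.578, 0.883 and 0.431 CPM in WT. Its log2 fold change was 1.25 (edgeR, adjusted p = 0.0477), and it was called without KO1 but in none of the other 5 fits that left out a library (0.0535 to 0.171), nor without the filter on low counts (0.0566). *Npas2*, the paralog of *Clock*, was too low to test. Among the repressors, *Cry1* was lower, at 18.5, 15.9 and 16.4 CPM in KO against 29.7, 20.9 and 24.0 CPM in WT, with a log2 fold change of −0.55 (adjusted p = 0.0499, and 0.110 to 0.192 without KO2, KO3, WT1 or WT3, 0.0878 with library totals alone and 0.0861 in limma on TPM). *Per3*, *Cry2* and *Ciart* had log2 fold changes of 0.39, −0.30 and 0.34 and did not pass. *Bhlhe41*, a repressor that competes for E-boxes, was higher at 131, 146 and 177 CPM in KO against 112, 86.9 and 97.9 CPM in WT, with a log2 fold change of 0.61 (adjusted p = 0.0302, and 0.0551 to 0.119 when any library other than KO1 was left out). In TPM the *Bhlhe41* libraries overlapped, at 14.7, 16.7 and 27.5 in KO and 19.2, 12.1 and 12.5 in WT, and limma did not call the difference (0.38, adjusted p = 0.312). *Bhlhe40* ranged from 64.3 to 173 CPM in KO and from 136 to 171 CPM in WT.

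The D-box factors beside *Dbp* did not pass the test in edgeR. *Tef*, the closest relative of *Dbp* by function, stood at 165, 177 and 126 CPM in KO and 277, 192 and 215 CPM in WT, with no overlap and a log2 fold change of −0.55 (edgeR, adjusted p = 0.0731). Its unadjusted p in edgeR was under 0.05, and it was called as lower by DESeq2 (adjusted p = 0.0489) and without the filter on low counts (0.0220), but not by limma on TPM (0.0658) or without any one library (0.0666 to 0.255). *Nfil3*, the D-box repressor, had a log2 fold change of −0.08 (adjusted p = 0.820), and *Hlf* was too low to test.

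Of the enzymes that act on PER and CRY proteins, the kinase genes *Csnk1e* and *Csnk2a1* were lower in KO, with log2 fold changes of −0.54 (edgeR, adjusted p = 0.0342) and −0.49 (adjusted p = 0.0290), and neither was called when any library other than KO1 was left out (0.0580 to 0.137 and 0.0632 to 0.126), nor with library totals alone (0.0620 and 0.0653). *Csnk2a1* was also not called without the filter on low counts (0.0513). In limma on TPM *Csnk1e* was called (adjusted p = 0.0387) and *Csnk2a1*, whose libraries overlapped, was not (0.128). *Csnk1d*, *Gsk3b*, *Btrc* and *Fbxw11* did not pass.

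Among the cofactors, *Ppargc1a*, which encodes PGC-1α, a coactivator of ROR receptors and a regulator of mitochondrial genes in muscle, was 20.7-fold lower in KO. It stood at 2.26, 1.40 and 1.02 CPM in the KO libraries and at 37.6, 21.3 and 37.9 in the WT libraries, a log2 fold change of −4.37 (edgeR, adjusted p = 0.000728) that was called in all 11 alternatives. The corepressor genes of the REV-ERB receptors, *Ncor1* (−0.20) and *Hdac3* (0.21), did not pass the test. Among the outputs, *Noct*, a rhythmic deadenylase-related gene, was lower at 8.28, 7.30 and 8.22 CPM in KO against 12.7, 12.9 and 10.8 CPM in WT (log2 fold change −0.61, adjusted p = 0.0333, and 0.0647 to 0.134 when any library other than KO1 was left out, 0.0702 with library totals alone, 0.0518 without the filter on low counts and 0.0817 in limma on TPM). *Usp2*, a deubiquitinase gene of the same list, overlapped in CPM and was not called by edgeR (−0.75, adjusted p = 0.0815), but was by DESeq2 (0.0353), without the filter on low counts (0.00116) and without KO1 (0.00210). In TPM it stood at 8.43, 4.64 and 5.21 in KO and 12.4, 9.60 and 10.1 in WT, with no overlap, and limma called it as lower (−0.75, adjusted p = 0.0387, and 0.0653 to 0.168 when any library other than KO1 was left out).

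**Figure D4:**
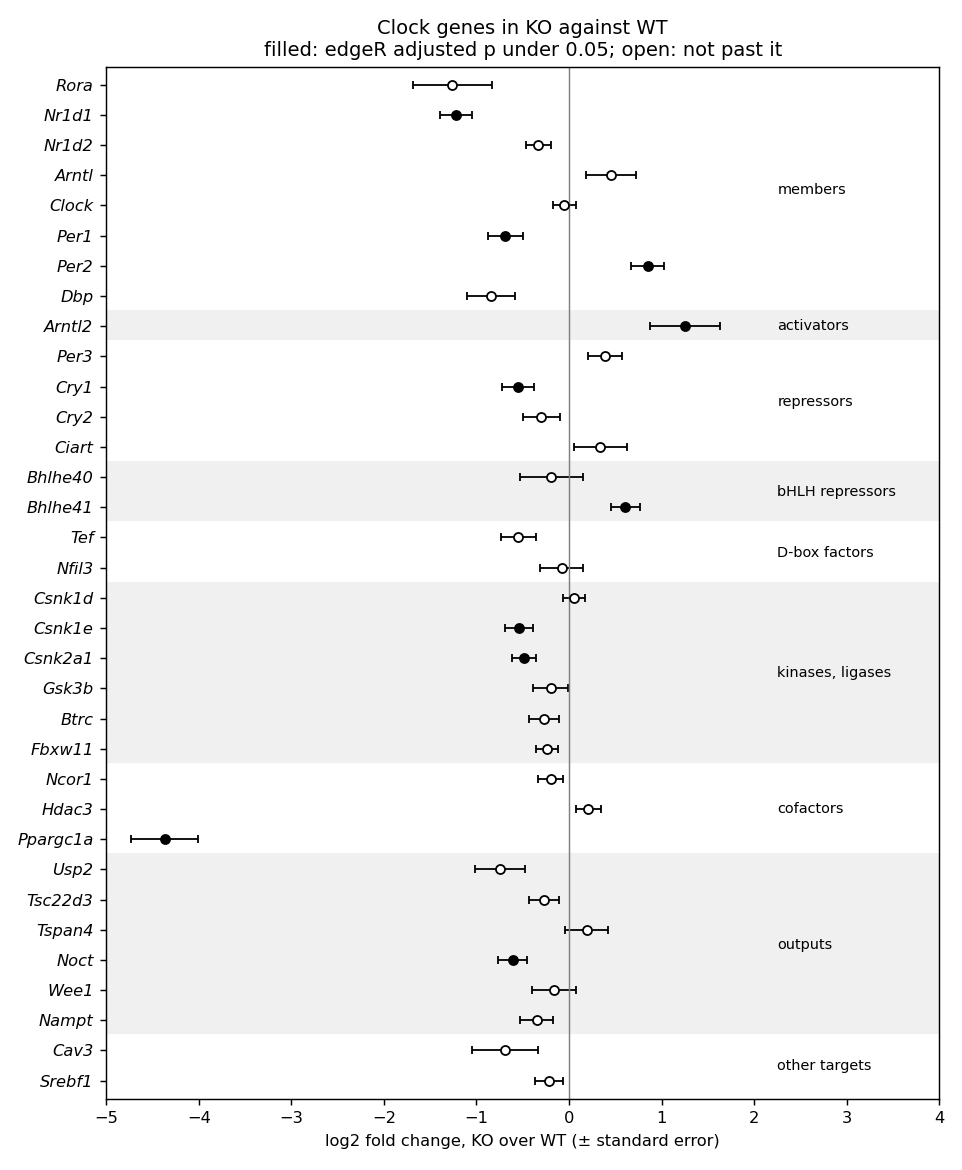
Points give the log2 fold change between KO and WT with its standard error for 8 of the chosen genes and 26 other tested clock pathway genes, filled where edgeR's adjusted p was under 0.05. *Ppargc1a* at −4.37 lies farthest from 0, and most of the other points lie between −1 and 1.

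**Figure D5:**
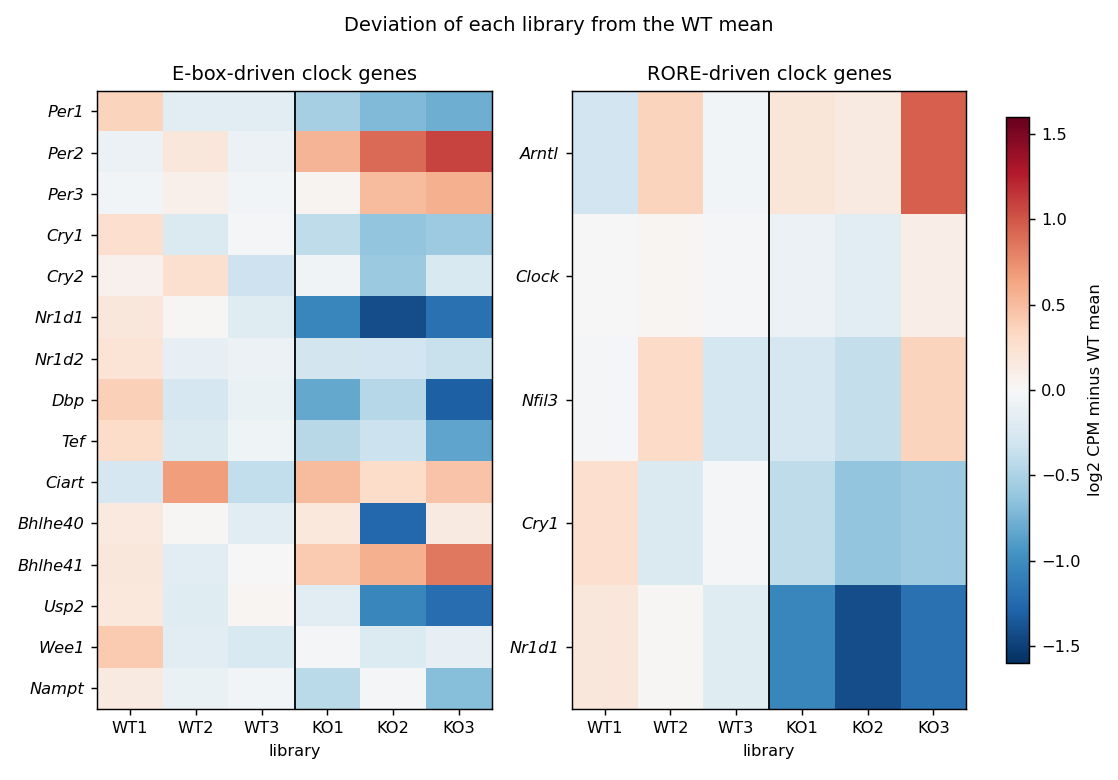
Colours give the log2 CPM of each library minus the mean of the WT libraries for the 15 tested E-box-driven (left) and 5 tested RORE-driven (right) clock genes. *Per2* and *Bhlhe41* are above the WT mean in all 3 KO libraries while *Nr1d1*, *Per1* and *Cry1* are below it, and *Arntl* is highest in KO3.

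Serum and glucocorticoids act on *Per1* and other clock genes directly, so their known response genes were listed. Of 9 immediate early genes, 4 were higher in KO (*Fosb*, *Junb*, *Egr1* and *Ier2*), 1 was lower (*Nr4a1*) and 4 did not pass, where 12.1% of all tested genes were higher and 10.6% lower. Without any one WT library 2 were higher and 1 was lower, without KO2 or KO3 3 and 1, and without KO1 5 and 2. Over all genes, 933 of 15521 passed without WT1, 2100 of 15408 without WT2 and 1288 of 15272 without WT3. It was 2695 of 15202 without KO2, 2088 of 14989 without KO3 and 4713 of 15409 without KO1. With library totals alone 5 were higher and 1 was lower, in DESeq2 4 and 1, and without the filter on low counts 4 and 2. Over all genes library totals alone gave 3469 of 14828. DESeq2 called 4149 of the 30252 genes with any read, and edgeR without that filter called 4538 of 30252. *Junb* stood at 251, 298 and 255 CPM in KO and 93.6, 88.4 and 86.6 CPM in WT, a log2 fold change of 1.58 (edgeR, adjusted p = 0.000712). *Nr4a1* stood at 15.7, 6.45 and 3.90 CPM in KO and 65.9, 46.0 and 44.1 CPM in WT, a log2 fold change of −2.59 (adjusted p = 0.0100). The calls of *Junb*, *Ier2* and *Nr4a1* held without each library in turn, while *Egr1* was not called when any library other than KO1 was left out (0.0615 to 0.104), nor *Fosb* when any other than KO3 was (0.0524 to 0.131). *Fosb*, at 0.439 to 0.641 CPM in KO and 0.152 to 0.231 CPM in WT, was also not called in DESeq2 (0.0779) or without the filter on low counts (0.0909). In limma on TPM *Egr1*, whose libraries overlapped, was not called (0.0567), and *Atf3*, which edgeR did not call (−1.45, adjusted p = 0.0943) other than without the filter on low counts (−1.47, 3.64e-07) and without KO1 (−2.35, 0.00299), was called as lower (−1.36, adjusted p = 0.0478, and 0.0759 to 0.122 when any library other than KO1 was left out). Of the glucocorticoid-responsive genes, *Sgk1* was higher (1.67, adjusted p = 0.00203), *Klf9* was lower (−1.43, adjusted p = 0.00708), *Fkbp5* (0.35) and *Tsc22d3* (−0.27) did not pass, and *Zbtb16* had no reads in any library. Their part in the clock gene values was not tested.

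In bulk RNA, fewer cells of a type and less RNA per cell cannot be told apart. For scale, edgeR called 12.1% of all tested genes as higher in KO and 10.6% as lower. At an unadjusted p under 0.05 edgeR gave 5781 of 14828 genes. DESeq2 called 4149 of the 30252 genes with any read in either direction, and limma on TPM called 20.5% of those it tested. Of 14 myotube markers 1 was lower in KO (*Atp2a1*, 534 to 770 CPM in KO and 800 to 1705 in WT, edgeR adjusted p = 0.0470, 0.0503 with library totals alone and 0.108 to 0.136 without KO2, KO3, WT1 or WT3), 13 did not pass, and the median of the list was −0.42. DESeq2 called 2 as lower (*Atp2a1* and *Myh3*), and limma on TPM called 3 (*Atp2a1*, *Myh3* at −1.44 with adjusted p = 0.0404, and *Myh8* at −1.88 with adjusted p = 0.0173), with no overlap between the libraries. *Tnnc2*, also a listed myotube marker, held 0.275 to 0.636 CPM but 14.0 to 78.9 TPM, so its counts and TPM disagree. Of the 8 cell cycle markers 0 passed the test in edgeR, 2 had an unadjusted p under 0.05 and 2 passed in DESeq2 (*Mcm5* and *Mki67*, higher in KO), with summed levels of 298, 537 and 489 CPM in KO and 302, 327 and 377 in the WT libraries. Of 4 fibroblast markers, *Dpt* (5.88, adjusted p = 0.00662) and *Pdgfra* (1.17, adjusted p = 0.0257, and 0.0576 to 0.109 without KO3 or any WT library) were higher in KO and *Lum* and *Thy1* were too low to test, with summed levels of 12.5 to 65.2 CPM in KO and 3.96 to 5.79 CPM in WT. Of 4 adipocyte markers, *Cebpa* was higher (1.24, adjusted p = 0.0323, 0.0572 in limma on TPM and 0.0689 to 0.111 when any library other than KO1 was left out), and *Adipoq*, *Plin1* and *Fabp4* were at or near 0. Neuron markers summed to 0.0839 to 0.206 CPM in KO and 0.549 to 0.731 CPM in WT, with *Syt1* lower in KO (−2.14, adjusted p = 0.0350, and 0.0610 to 0.112 when any library other than KO1 was left out), and *Snap25*, *Rbfox3* and *Elavl4* at or near 0. Blood and vessel cell markers summed to 2.27 to 3.47 CPM in KO and 2.04 to 2.54 CPM in WT, nearly all of it *Cd68*, which did not pass, with *Ptprc*, *Pecam1* and *Cdh5* at or near 0. The part of these cell types in the clock gene values was not tested.

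The genes whose pattern over the 6 libraries was most like that of *Rorb*, by Pearson's r of log2 CPM, were *Unc13c* (0.9991), *Fahd2a* (0.9989), *Olfm3* (0.9989), *Sptbn1* (0.9985) and *Fat2* (0.9984). The likeness is that of a step between genotypes with little spread within them. *Fat2*, a giant cadherin gene, stood at 0.755, 0.664 and 0.512 CPM in KO and 59.2, 61.8 and 58.3 CPM in WT, while *Fahd2a* stood at 4.12 to 4.30 CPM in KO and 8.31 to 8.62 CPM in WT. Those most like *Dbp*, with WT1 highest and KO3 lowest, were *Iah1* (0.9978), *Dhx34* (0.9955), *Cox7a2l* (0.9951), *Rab12* (0.9950) and *Dscr3* (0.9948). Each r is over 6 libraries that share these 2 genotypes and is a description.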

How the data were processed

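Total RNA of 3 KO and 3 WT libraries was sequenced. Per the methods, reads were aligned with STAR, and the authors deposited raw counts per gene for all 6 libraries, with no normalization, of which 0 columns were left unused. The authors also deposited StringTie TPM values per library, which are corrected for transcript length and scaled to the same sum in each library, and FPKM and coverage values from the same StringTie run, which the authors deposited beside them and which were not used. The methods name GRCm39 and the processing notes mm9, but the deposited coordinates fit GRCm38, which is used here.

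Counts were scaled with TMM factors, filtered with filterByExpr and then compared by edgeR 4.0.16 (R 4.3.3, quasi-likelihood test, two-sided) on all 14828 genes that passed, with Benjamini-Hochberg adjustment over all of them and a threshold of 0.05. At an unadjusted p under 0.05, 5781 genes differed. TPM was tested with limma 3.58.1 on log2(TPM + 1), for the 11691 genes that reached a TPM of 1 in 3 or more libraries, of which 20.5% passed. Fold changes on this scale understate those of low genes. DESeq2 1.42.0, other scalings, other filters, a pseudocount of 0.1, a replicate block and leaving out each library were alternatives. Fits were tested on simulated counts. The chi-square per degree of freedom between libraries of a genotype was 46.6 to 171, so no library repeated another.

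All 9 chosen genes, the listed genes past the threshold and the 5 genes most like *Rorb* and *Dbp* (log2 CPM, prior count 2, predicted-gene names left out) are named. *Trpm6*, *Anxa1*, *Zfand5*, *D030056L22Rik*, *Thra*, *Sphk2* and listed genes not past the threshold were added after their values were seen. The genes and lists were chosen with earlier results of these data known. Permutation tests planned for the family sums and for *Dbp* against *Arntl* are not printed, since these scores are made from the chosen genes. The deposited files list *Noct* under its older symbol, Ccrn4l. Some listed genes are not reported here, for reasons unrelated to their values, and stand in no list count or sum.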

Additional observations from a re-analysis of the deposited data

How the results depend on the processing

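With library totals alone the median of all genes moved by 0.12, and *Per1* missed the threshold (−0.58), *Clock* turned sign (0.07) and the bound on *Rorb* was 198-fold. DESeq2 called *Rora* (−1.29) and *Dbp* (−0.87), as did edgeR with no filter on low counts (−1.29 and −0.87). In TPM with no filter, 1075 genes were called in place of 2394, and *Per1* (−0.56) and *Dbp* (−0.71) were not. Leaving out each library in turn gave 933 to 4713 called genes from counts, against 3361, and 484 to 3156 in TPM. The log2 fold changes then ranged from −1.52 to −0.89 for *Rora*, −1.34 to −1.12 for *Nr1d1*, −0.13 to 0.02 for *Clock*, −0.81 to −0.50 for *Per1*, 0.74 to 0.98 for *Per2* and −1.07 to −0.63 for *Dbp*. In TPM they ranged from −1.11 to −0.89 for *Nr1d1*, −0.19 to 0.11 for *Clock*, −0.66 to −0.40 for *Per1*, 0.38 to 0.68 for *Per2* and −0.85 to −0.51 for *Dbp*. The bound on *Rorb* ranged from 205 to 227. The causes of these changes were not tested.

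No pairing by replicate number was seen, as deviations of KO and WT libraries with the same number correlated at 0.137, −0.116 and 0.004. Pairs of unlike number ranged from −0.335 (KO3 and WT1) to 0.28 (KO3 and WT2). With 3 libraries per genotype these values do not decide whether libraries were paired, and no source ties a number to a shared clone. With the replicate block, 2520 genes were called from counts and 2103 in TPM, 0 of the other clock pathway genes were higher and 3 lower, *Rora* passed the threshold (−1.36), and *Per1* in TPM did not (−0.56). *Nr1d1* (−1.22), *Per1* (−0.67) and *Per2* (0.84) stayed called from counts and *Dbp* (−0.86) uncalled. *Fosb*, *Arntl2*, *Cry1*, *Bhlhe41*, *Csnk2a1*, *Noct*, *Atp2a1* and *Cebpa* were not called under the block (adjusted p = 0.0587 to 0.0833), while *Usp2* was (0.0446). The mean difference of *Dbp* from *Arntl* ranged from −1.63 to −0.80 without each library, and its libraries overlapped in CPM. Counts of 0 to 1 limit what can be said of *Rorb* in KO to the floor of 3 reads.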
